A study of Mus musculus with 12 samples.

Results

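The 4 genes described here encode proteins that act on viruses at cell membranes: Ifitm1, Ifitm2 and Ifitm3, the interferon-induced transmembrane proteins, and Bst2, also called tetherin. They were chosen from earlier results of the same arrays for how their interferon response differed between stimulated and resting cells, so their interferon values are given as a description, without a test. Each gene was matched to the rows of the array whose annotation gave its symbol alone, which left 1 row for each of the 4 genes among 22180 genes measured this way (23521 of 33793 rows). Their Entrez identifiers are 68713 for Ifitm1, 80876 for Ifitm2, 66141 for Ifitm3 and 69550 for Bst2.

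Ifitm proteins sit in the plasma and endosomal membranes and hinder the fusion of enveloped viruses with them. Ifitm3 works mainly in late endosomes and limits influenza virus entry, and in mice it is known to protect resident memory CD8+ T cells of the lung during influenza. Tetherin is anchored in the membrane at both of its ends and holds newly formed virions on the surface of the cell that made them; its human counterpart is a target of the HIV-1 protein Vpu. Both Ifitm3 and Bst2 are known as interferon-stimulated genes, which are switched on when the type I interferon receptor activates Jak1 and Tyk2, and through them transcription factors, Stat2 and Irf9 among them, that act at the interferon-stimulated response element of promoters.

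RNA of C57BL/6 mouse spleen CD8+ T cells, enriched by removing other cells, was measured on 12 single-channel arrays, 3 in each of 4 groups, after 6 h of culture. The groups were anti-CD3 with IFN-4a, anti-CD3 alone, PBS with IFN-4a (IFN-4a on otherwise unstimulated cells), and PBS alone. Anti-CD3 is an antibody against the T cell receptor complex that activates T cells, and IFN-4a is the interferon as the labels name it. All mice were of 1 strain with no altered gene named; the labels used here name no dose, age or sex. Cells treated with anti-CD3 are called stimulated below, and cells in PBS resting. The labels number the replicates but do not say whether they came from separate animals or cultures, so the tests measure the spread between these arrays, which may be technical.

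Each value is a log2 value minus the median of its row over the 12 arrays, as deposited, so a value of 0 is that gene's middle array and no level can be compared between genes. A gene was called in a comparison when its limma adjusted p (Benjamini-Hochberg over 22180 genes) was below 0.05. Array medians lay between -0.0157 and 0.0165. Within groups the lowest correlation between arrays over all rows was 0.608, and between groups the highest was 0.527. The CD8+ label was set beside markers: all 5 measured T cell and CD8 markers were bright in every array, in the sense described below for Ifitm3 and Bst2. The counts were 0 of 6 for B cells, 1 of 6 for plasmacytoid dendritic cells, 0 of 6 for monocytes and macrophages, 0 of 6 for granulocytes, 0 of 5 for NK cells, 0 of 4 for CD4 T cells, and 0 of 3 for erythroid cells and platelets. Of all genes 21.4% were bright in this sense, so a count of 0 in so short a list does not show absence. Purity was not measured.

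The promoters of the 4 genes are shown because the response element is where interferon signalling meets DNA, and the genes differed in their response. Each is the RefSeq window of 250 bases before to 50 bases after the start, on GRCm38.p6, 5′ to 3′ on the strand of the gene. Capitals mark matches to GAAANNGAA, the core of the interferon-stimulated response element, searched on both strands. The windows were chr7:141010695-141010994 (minus strand) for Ifitm3, chr8:71537423-71537722 (minus strand) for Bst2, chr7:140967826-140968125 (plus strand) for Ifitm1 and chr7:140955912-140956211 (minus strand) for Ifitm2.
Ifitm3: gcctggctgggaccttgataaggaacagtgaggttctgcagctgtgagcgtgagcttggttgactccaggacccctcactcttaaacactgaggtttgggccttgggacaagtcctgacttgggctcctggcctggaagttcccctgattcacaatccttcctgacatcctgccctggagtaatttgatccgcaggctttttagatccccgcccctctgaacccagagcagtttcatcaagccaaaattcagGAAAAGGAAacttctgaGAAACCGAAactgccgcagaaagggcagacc
Bst2: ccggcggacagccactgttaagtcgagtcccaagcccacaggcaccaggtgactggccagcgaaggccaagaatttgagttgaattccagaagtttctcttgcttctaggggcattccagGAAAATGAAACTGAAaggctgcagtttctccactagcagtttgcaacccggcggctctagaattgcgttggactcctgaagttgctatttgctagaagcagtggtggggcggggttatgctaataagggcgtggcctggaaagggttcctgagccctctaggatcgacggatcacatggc
Ifitm1: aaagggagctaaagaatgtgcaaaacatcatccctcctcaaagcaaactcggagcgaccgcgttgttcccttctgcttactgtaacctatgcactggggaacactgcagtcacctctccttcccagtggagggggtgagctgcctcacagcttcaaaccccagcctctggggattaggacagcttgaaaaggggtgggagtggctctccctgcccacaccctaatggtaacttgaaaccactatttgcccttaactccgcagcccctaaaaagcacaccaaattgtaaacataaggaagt
Ifitm2: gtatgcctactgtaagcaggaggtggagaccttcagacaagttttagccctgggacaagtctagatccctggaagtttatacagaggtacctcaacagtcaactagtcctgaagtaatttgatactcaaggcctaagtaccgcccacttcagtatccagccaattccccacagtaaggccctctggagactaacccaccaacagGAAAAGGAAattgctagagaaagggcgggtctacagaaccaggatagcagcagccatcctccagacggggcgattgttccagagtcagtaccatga
Ifitm3 held 2 matches just after its start, at bases 3 to 11 and 20 to 28. Bst2 held 2 matches that overlap each other, at bases -130 to -122 and -124 to -116 before the start. Ifitm2 held 1 match, at -46 to -38, and Ifitm1 held 0. Among all 32851 RefSeq promoter windows of the same length, 8.56% held this motif. The gamma-activated site TTCNNNGAA was found once in Ifitm3, at 14 to 22, and once in Bst2, at -136 to -128, in both cases overlapping a response element match by a few bases. It was absent from the other 2 windows and present in 8.3% of all windows. A match describes letters only; binding was not measured.

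Ifitm3 was high wherever IFN-4a was given, and by far the highest where IFN-4a met anti-CD3. Its centred log2 values were 2.14, 2.25 and 2.12 in anti-CD3 cells with IFN-4a, against -0.73, -0.76 and -0.62 in anti-CD3 cells. In PBS cells with IFN-4a they were 0.69, 0.67 and 0.62, against -0.81, -0.81 and -1.03 in PBS cells. No 2 of the 4 groups overlapped, and the order of the groups was anti-CD3 with IFN-4a, PBS with IFN-4a, anti-CD3, PBS. The means were 2.17 ± 0.07 with anti-CD3 and IFN-4a, -0.70 ± 0.08 with anti-CD3, 0.66 ± 0.04 with PBS and IFN-4a and -0.88 ± 0.13 with PBS (SD, n = 3 each).

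Bst2 was high in both groups that received IFN-4a, intermediate with anti-CD3 alone and low in PBS cells alone. Its values were 0.83, 0.86 and 0.89 in anti-CD3 cells with IFN-4a, against -0.90, -0.88 and -0.83 in anti-CD3 cells. PBS cells with IFN-4a gave 0.94, 0.89 and 0.87, against -2.24, -2.31 and -2.31 in PBS cells. The arrays of the 2 groups with IFN-4a overlapped, and both stood clear of anti-CD3 alone, which stood clear of PBS. The means were 0.86 ± 0.03, -0.87 ± 0.04, 0.90 ± 0.04 and -2.28 ± 0.04 in the same order of groups (SD, n = 3 each).

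Ifitm1, which acts mainly at the plasma membrane, moved little. Its values were -0.03, -0.04 and 0.11 in anti-CD3 cells with IFN-4a, against 0.07, 0.19 and 0.03 in anti-CD3 cells. They were -0.07, -0.04 and -0.11 in PBS cells with IFN-4a, against 0.04, -0.05 and 0.04 in PBS cells. The groups with and without IFN-4a overlapped in both states, and the whole range of the 12 arrays was narrower than the IFN-4a change of Ifitm3 or Bst2 in either state.

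Ifitm2, an endosomal relative of Ifitm3, scattered without a clear order of groups. Anti-CD3 cells with IFN-4a gave 0.03, 0.15 and -0.16, against -0.05, 0.06 and 0.13 in anti-CD3 cells. PBS cells with IFN-4a gave -0.01, -0.17 and -0.42, against 0.42, -0.04 and 0.01 in PBS cells. Groups overlapped in both states, and 1 PBS array (0.42) and 1 PBS array with IFN-4a (-0.42) lay farthest out. The spread of Ifitm2 within groups, a residual SD of 0.19 log2, was wider than that of 96% of all genes, whereas that of Bst2, 0.04, was narrower than all but 2.17%; Ifitm3 had 0.09 and Ifitm1 0.07, beside a median of 0.09 over all genes.

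**Figure D1:**
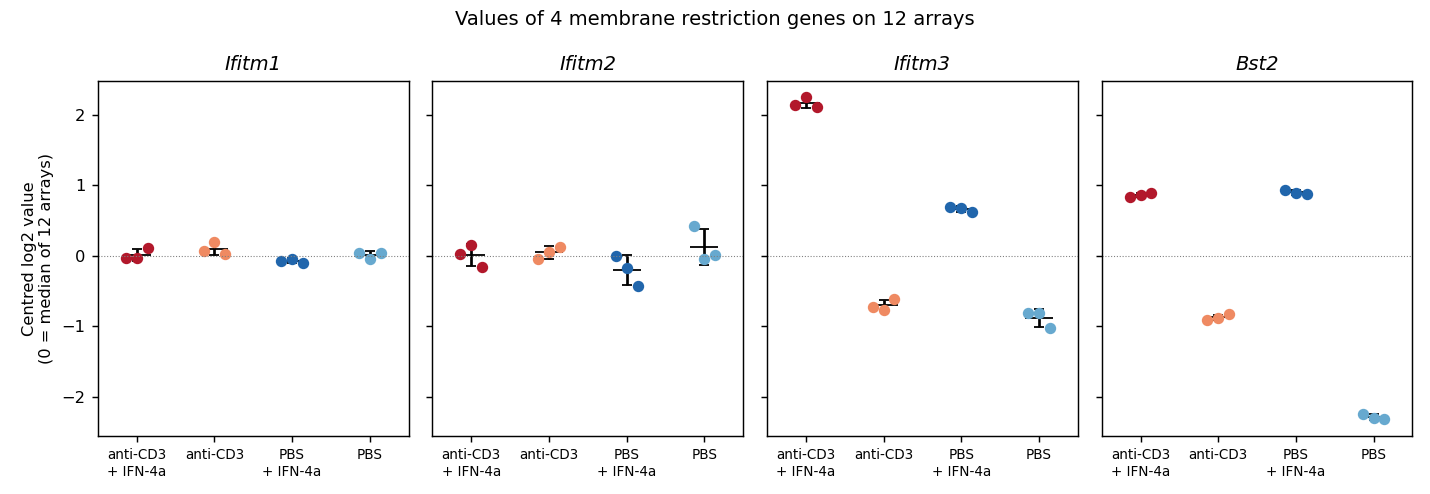
Centred log2 value (0 is the median of the 12 arrays of each gene) of Ifitm1, Ifitm2, Ifitm3 and Bst2 in the 4 groups; points are arrays, bars the group mean and SD (n = 3). Ifitm3 stands at 2.12 to 2.25 only with anti-CD3 and IFN-4a together, Bst2 is alike in both IFN-4a groups, and Ifitm1 and Ifitm2 stay close to 0.

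The deposited values carried a trace of brightness. A value stored at single precision is a whole multiple of a coarser step once it exceeds 8 on the log2 scale, and subtraction of the row median keeps that step. For Ifitm3 and for Bst2 all 12 values lay on the step (within 0.25 of it), as for 21.4% of all genes, so both were read as at or above 8 before centring in every array, resting cells included. Only 9 of 12 values of Ifitm1 and 6 of 12 of Ifitm2 lay on it, which means that at least 1 of their values, or their row median, was below 8. This sets no order of levels between genes, and centred values do not show how far above background a row stood.

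IFN-4a in stimulated cells raised Ifitm3 7.32-fold (2.87, SE 0.07) and Bst2 3.33-fold (1.73, SE 0.05). Ifitm1 differed by -0.08 (SE 0.06) and Ifitm2 by -0.04 (SE 0.13), both with overlapping groups. Here 1.99% of all genes were called higher and 1.43% lower, and 20 genes exceeded Ifitm3 and 53 exceeded Bst2. In bulk RNA, more cells responding and more RNA per cell cannot be told apart.

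IFN-4a in resting cells raised Bst2 9.09-fold (3.18 on the log2 scale, SE 0.05) and Ifitm3 2.91-fold (1.54, SE 0.07). Ifitm1 differed by -0.08 (SE 0.06) and Ifitm2 by -0.33 (SE 0.13), again with overlap. Across all genes, 4.19% were called higher and 8.22% lower in this comparison. In size, 32 genes exceeded Bst2 and 107 exceeded Ifitm3. The order of the pair was thus turned round: Ifitm3 led in stimulated cells and Bst2 in resting cells.

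The difference between states, taken as the log2 IFN-4a change of stimulated cells less the change of resting cells, was 1.33 (SE 0.10) for Ifitm3 and -1.45 (SE 0.07) for Bst2. It was 0.00 (SE 0.09) for Ifitm1 and 0.29 (SE 0.18) for Ifitm2. Across all genes 0.28% were called higher and 0.631% lower for this difference. No gene had a higher value than Ifitm3, and 17 had a lower value than Bst2; over 18 other ways of processing, 0 to 3 genes exceeded Ifitm3. Quantile normalization was applied to the deposited centred values, and gives each value the mean over arrays at its rank. It thus makes the extremes of the centred values alike in arrays of different treatments. Ifitm3 stayed within 1.28 to 1.40, its range over these alternatives, but Bst2 came to -0.53, with 111 genes below it. After this normalization the values of Bst2 were -1.23 to -1.14 in anti-CD3 cells, against -1.48 to -1.41 in PBS cells. Before it, Bst2 had 72 to 89 of 33793 rows below it in the anti-CD3 arrays and 35 to 43 in the PBS arrays.

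Most genes that responded strongly to IFN-4a leaned the way of Bst2. Among the 147 genes whose mean IFN-4a change over both states was at least 1 on the log2 scale, a limit set after the values were seen, the change was smaller in stimulated cells for 126 and larger for 21, with a median difference of -0.48. Ifitm3 belonged to the smaller set and Bst2 to the larger. This count was not repeated after quantile normalization. That processing left 70 of all genes called lower and 47 called higher for the difference between states, against 140 and 62 without it.

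**Figure D2:**
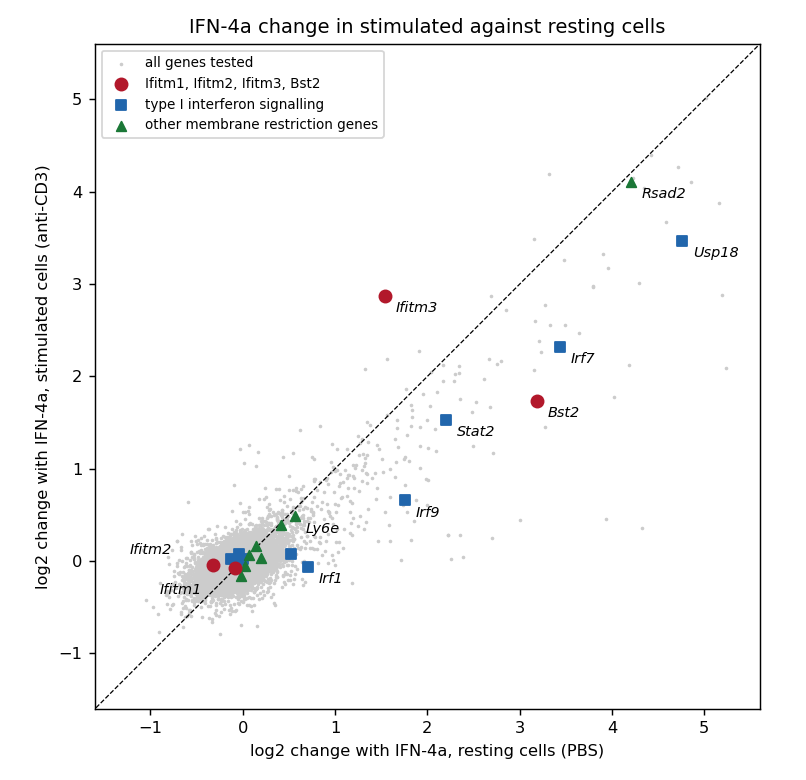
log2 change with IFN-4a in stimulated cells (vertical) against resting cells (horizontal) for all 22180 genes (grey), the 4 genes (red circles), type I interferon signalling genes (blue squares) and other membrane restriction genes (green triangles); the dashed line marks equal change. Ifitm3 lies above the line at 2.87 against 1.54, Bst2 below it at 1.73 against 3.18, and Ifitm1 and Ifitm2 near 0.

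The values with both agents together restate the difference between states. The change with both agents less the sum of the single changes equals that difference, so they add no separate result. Relative to PBS, anti-CD3 with IFN-4a raised Ifitm3 by 3.05 on the log2 scale, 8.29-fold, where the sum of both single changes was 1.72. For Bst2 the change with both agents was 3.15, or 8.85-fold, against a sum of 4.59. After quantile normalization, tried after these values were seen, the changes with both agents were 2.57 for Ifitm3, 5.95-fold, and 2.21 for Bst2, 4.63-fold, against sums of 1.29 and 2.74.

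Anti-CD3 without IFN-4a raised Bst2 2.66-fold (1.41 on the log2 scale, SE 0.05, limma adjusted p = 1.01e-10), with every anti-CD3 array above every PBS array. A gene's anti-CD3 change with IFN-4a less its change without it equals the difference between states for which the genes were chosen. The adjusted p of the 4 genes in both comparisons is thus tied to that choice and serves as a description. Ifitm3 differed by 0.18 (95% interval 0.03 to 0.33, adjusted p = 0.0703) and did not pass, although its groups did not overlap. Ifitm1 differed by 0.09 (interval -0.05 to 0.22, adjusted p = 0.35) and Ifitm2 by -0.08 (interval -0.36 to 0.20, adjusted p = 0.717). In all, 1 of the 4 genes was thus called higher and none lower, where 13.6% of all genes were called higher and 17.9% lower. The value of Ifitm3 turned to -0.22 after quantile normalization of the centred values (adjusted p = 0.0216). It passed at 0.20 with each array centred on its median (adjusted p = 0.0475). Its direction thus depended on the processing and was not settled. Bst2 kept its direction but came to 0.28 after quantile normalization (adjusted p = 0.000796).

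Anti-CD3 in the presence of IFN-4a raised Ifitm3 2.85-fold (1.51, SE 0.07, limma adjusted p = 1.38e-09), with no overlap. Bst2 differed by -0.04 (interval -0.15 to 0.07, adjusted p = 0.676), with overlapping groups, and this value became -0.25 after quantile normalization, where it passed (adjusted p = 0.00216). Ifitm1 differed by 0.09 (interval -0.04 to 0.22, adjusted p = 0.371) without overlap, and Ifitm2 by 0.21 (interval -0.07 to 0.48, adjusted p = 0.309). Against 1 of the 4 genes called higher, 12.5% of all genes were called higher and 14.6% lower. Both anti-CD3 comparisons share arrays with the IFN-4a comparisons above and are not independent of them. Together they make up the difference for which the genes were chosen, so their p-values for these genes are no separate test.

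The rest of the family to which the Ifitm genes belong, which shares the CD225 domain, held no member with a change near that of Ifitm3. Of 10 measured relatives, 0 were called by limma with IFN-4a in stimulated cells (1 at an unadjusted p below 0.05, list median 0.02, all genes 0.00), where 1.99% of all genes were higher and 1.43% lower. In resting cells 1 was called higher and 2 lower (median -0.01, all genes -0.01), where 4.19% of all genes were higher and 8.22% lower. In resting cells Tmem233 rose by 0.36 (limma adjusted p = 0.024), Ifitm10 fell by 0.39 (adjusted p = 0.00666) and Prrt1, a protein of the synapse, fell by 0.31 (adjusted p = 0.0107). Tmem233 lost its call without PBS replicate 2 (adjusted p = 0.0931), without PBS replicate 3 (0.0599), without PBS with IFN-4a replicate 1 (0.0995) or after quantile normalization (0.0593). The largest values in stimulated cells, 0.21 for Syndig1l (adjusted p = 0.436) and 0.17 for Tmem233 (adjusted p = 0.432), did not pass. The relatives in the same cluster as Ifitm3, Ifitm5 of bone and Ifitm6, stood at -0.09 and 0.02 in stimulated cells (adjusted p = 0.602 and 0.923) and at 0.11 and 0.00 in resting cells (adjusted p = 0.329 and 0.973). With anti-CD3 alone Ifitm10 fell by 0.49 (adjusted p = 0.000296) and Prrt1 by 0.24 (adjusted p = 0.0154), where 13.6% of all genes rose and 17.9% fell. With anti-CD3 on top of IFN-4a 0 of 10 passed (1 at an unadjusted p below 0.05), where 12.5% of all genes rose and 14.6% fell. There Ifitm10 had -0.22 (adjusted p = 0.0654, with a call under 4 alternatives). The call of Prrt1 with anti-CD3 alone was lost without anti-CD3 replicate 1 (adjusted p = 0.0509) or 2 (0.0819), without PBS replicate 1 (0.0552) or 3 (0.0612), and after quantile normalization (0.0507). Ifitm7 had no row with its symbol alone and is not described.

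Among other restriction genes of membranes and viral entry, the same 3 genes were called with IFN-4a in both states. Of 8 measured, 3 were called higher and 0 lower in stimulated cells (list median 0.11), where 1.99% of all genes were higher and 1.43% lower. In resting cells 3 were higher and 0 lower (median 0.17), where 4.19% of all genes were higher and 8.22% lower. Rsad2, which encodes viperin, a protein of the endoplasmic reticulum and lipid droplets that hinders viral replication and budding, rose by 4.10 in stimulated cells (limma adjusted p = 1.61e-11) and by 4.20 in resting cells (adjusted p = 5.66e-12). Ly6e, a membrane-anchored inhibitor of coronavirus entry, rose by 0.48 in stimulated cells (adjusted p = 0.000161) and by 0.56 in resting cells (adjusted p = 2.23e-05). Ncoa7, whose interferon-induced form acts on endosomes, rose by 0.39 (adjusted p = 0.0249) and 0.41 (adjusted p = 0.00674). The call of Ncoa7 in stimulated cells was lost without any 1 of the 3 anti-CD3 arrays with IFN-4a or without anti-CD3 replicate 1 or 2, at an adjusted p of up to 0.109. None of the 8 passed limma's test of the difference between states, and 0 had an unadjusted p below 0.05. So few genes in all were called higher (0.28%) or lower (0.631%) that a count of 0 among 8 says nothing about the list. Ch25h, an enzyme that makes an antiviral oxysterol, had -0.16 (adjusted p = 0.656), Zmpste24 -0.14 (adjusted p = 0.64) and Rsad2 -0.10 (adjusted p = 0.881), beside 1.33 for Ifitm3 and -1.45 for Bst2.

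With anti-CD3, Zmpste24, Serinc5 and Serinc3 passed both in the presence of IFN-4a and without it. Zmpste24, a membrane protease that works with Ifitm3, rose by 0.47 in the presence of IFN-4a (limma adjusted p = 7.37e-05) and by 0.61 without it (adjusted p = 5.15e-06). Serinc5 and Serinc3, which are built into virions and lower their infectivity, fell: Serinc5 fell by 0.72 and by 0.64 (adjusted p = 6.34e-06 and 1.69e-05), and Serinc3 by 0.50 and by 0.49 (adjusted p = 1.19e-05 and 1.14e-05), with IFN-4a and without it. Ly6e fell by 0.22 in the presence of IFN-4a (adjusted p = 0.0113), a call lost without PBS with IFN-4a replicate 3 (0.0569) or without anti-CD3 with IFN-4a replicate 1 (0.0506). In all, 1 of the 8 rose and 3 fell with IFN-4a present, beside 12.5% and 14.6% of all genes, and 1 rose and 2 fell without it, beside 13.6% and 17.9%.

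Among genes for proteins that modify or partner the Ifitm proteins, 12 were measured. With IFN-4a, 0 rose and 1 fell in stimulated cells, where 1.43% of all genes fell, and 0 rose and 1 fell in resting cells, where 8.22% fell. The tetraspanin Cd9 fell by 0.33 in stimulated cells (limma adjusted p = 0.0145), a call lost with the mean of its rows (-0.17, adjusted p = 0.171), without anti-CD3 replicate 3 (0.0723) or without anti-CD3 with IFN-4a replicate 1 (0.0649). Atp6v0b, a subunit of the vacuolar proton pump, fell by 0.25 in resting cells (adjusted p = 0.0136), a call lost without PBS replicate 3 (0.0523) or PBS with IFN-4a replicate 2 (0.0593). Anti-CD3 lowered Nedd4, the ubiquitin ligase that marks Ifitm3 for degradation, by 0.77 in the presence of IFN-4a (log2 change -0.77, adjusted p = 2.16e-07) and by 0.96 without it (log2 change -0.96, adjusted p = 2.08e-08). Setd7, a methyltransferase with Ifitm3 among its substrates, changed by -0.36 (adjusted p = 0.00203) and -0.48 (adjusted p = 0.000193). Vapa, an endoplasmic reticulum protein that Ifitm3 binds, rose by 0.27 (adjusted p = 0.0106) and 0.37 (adjusted p = 0.00091); the first of these calls was lost without PBS with IFN-4a replicate 3 (0.0552) or anti-CD3 with IFN-4a replicate 2 (0.0548). Atp6v0b rose by 0.34 with IFN-4a present (adjusted p = 0.000414), and Cd9 by 0.31 without it (adjusted p = 0.00238). In all, 2 of the 12 rose and 2 fell with IFN-4a present, beside 12.5% and 14.6% of all genes. Without it 2 rose and 3 fell, beside 13.6% and 17.9%. Among these 3 was Osbp, named after its value was seen (-0.19, limma adjusted p = 0.0464), whose call was lost under 13 alternatives. For the difference between states 0 of 12 passed (3 at an unadjusted p below 0.05), beside 0.28% of all genes called higher and 0.631% lower. Cd9 had -0.35 (adjusted p = 0.151) and Atp6v0b 0.34 (adjusted p = 0.0941).

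Of the genes that carry tetherin through the cell or relay its signal, 10 were measured. With IFN-4a, 0 rose and 0 fell in either state by limma (0 in stimulated and 3 in resting cells at an unadjusted p below 0.05). List medians were -0.05 in stimulated and -0.02 in resting cells. So few genes in all rose (1.99%) or fell (1.43%) in stimulated cells that a count of 0 among 10 says nothing about the list there. In resting cells 4.19% of all genes rose and 8.22% fell, so a count of 0 among 10 says little there as well. The largest values were 0.16 for the kinase Syk and -0.11 for the ESCRT-I subunit Tsg101 in stimulated cells (adjusted p = 0.384 and 0.492), and -0.14 for the clathrin adaptor subunit Ap2m1 and -0.13 for Hgs in resting cells (adjusted p = 0.102 and 0.154). With anti-CD3, Btrc, the substrate receptor of a ubiquitin ligase through which human Vpu removes tetherin, fell by 0.47 in the presence of IFN-4a (limma adjusted p = 3.2e-06) and by 0.55 without it (adjusted p = 6.35e-07). Map3k7, the kinase TAK1 that human tetherin engages to activate NF-kappaB, rose by 0.16 (adjusted p = 0.0347) and 0.37 (adjusted p = 6.56e-05), the first of these calls being lost under 7 alternatives. Hgs, a sorting factor of endosomes, fell by 0.23 without IFN-4a (adjusted p = 0.00484). Traf6, a ubiquitin ligase upstream of Map3k7, rose by 0.18 without IFN-4a (adjusted p = 0.045), a call lost under 10 alternatives. In all, 1 rose and 1 fell with IFN-4a present, and 2 rose and 2 fell without it, near the shares of all genes that did (12.5% to 13.6% rose and 14.6% to 17.9% fell). For the difference between states 0 of 10 passed (1 at an unadjusted p below 0.05), beside 0.28% of all genes called higher and 0.631% lower.

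Signalling genes of the type I interferon pathway that rose with IFN-4a were Usp18, Irf7, Stat2 and Irf9 in both states. Of 10 measured, 4 rose in stimulated cells (list median 0.08), where 1.99% of all genes did, and 6 rose in resting cells (list median 0.61), where 4.19% did. In either state 0 fell, where 1.43% of all genes fell in stimulated and 8.22% in resting cells. Usp18, a feedback inhibitor at the interferon receptor, rose by 3.47 in stimulated cells (limma adjusted p = 3.43e-11) and by 4.76 in resting cells (adjusted p = 5.98e-13). Irf7, a transcription factor that amplifies interferon production, rose by 2.32 (adjusted p = 6.35e-11) and 3.43 (adjusted p = 5.72e-13). Stat2 and Irf9, partners in the response element complex, rose by 1.53 and 0.66 in stimulated cells (adjusted p = 1.43e-09 and 9.78e-05) and by 2.20 and 1.76 in resting cells (adjusted p = 1.33e-11 and 1.43e-09).

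For the difference between states, 5 of these 10 were lower and 0 higher, with a list median of -0.56. Of all genes, 0.631% were lower and 0.28% higher. The values were -1.29 for Usp18 (limma adjusted p = 0.000224), -1.11 for Irf7 (adjusted p = 3.75e-05), -1.10 for Irf9 (adjusted p = 7.55e-05), -0.77 for Irf1 (adjusted p = 9.39e-05) and -0.67 for Stat2 (adjusted p = 0.00127), the last of which was named after its value was seen. Socs1, a feedback inhibitor of Jak kinases, had -0.45 and did not pass (adjusted p = 0.0829), and Ifnar1, Ifnar2, Jak1 and Tyk2 had 0.01 to 0.15 and did not pass (adjusted p = 0.622 to 0.979). After quantile normalization 3 of these calls were lost: Usp18 had -0.36 (adjusted p = 0.233), Irf7 -0.27 (adjusted p = 0.169) and Stat2 -0.24 (adjusted p = 0.334). Ifitm3, with a positive difference of 1.33, had a sign opposite to all 5.

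Anti-CD3 by itself moved this list in both directions. Without IFN-4a 6 of the 10 rose and 4 fell, where 13.6% of all genes rose and 17.9% fell. Among those that rose were Irf1 by 1.14 (limma adjusted p = 1.68e-09), Usp18 by 1.14 (adjusted p = 6.93e-07), Irf7 by 0.89 (adjusted p = 2.92e-07) and Irf9 by 0.83 (adjusted p = 9.96e-07), beside 1.41 for Bst2. After quantile normalization Usp18 stood at 0.02 (adjusted p = 0.892) and Irf7 at -0.11 (adjusted p = 0.147). With IFN-4a present 2 rose and 6 fell, where 12.5% of all genes rose and 14.6% fell. Some of these calls were lost under alternatives: the falls of Irf7 (-0.23) under 6 and Irf9 (-0.27) under 3, and the rise of Socs1 (0.28) under 3. The largest falls were those of the receptor chain Ifnar1, by 0.62 (adjusted p = 8.13e-07), and the kinases Jak1 and Tyk2, by 0.46 and by 0.39 (adjusted p = 8.33e-05 and 0.00119). Irf1 rose by 0.37 (adjusted p = 9.11e-05).

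**Figure D3:**
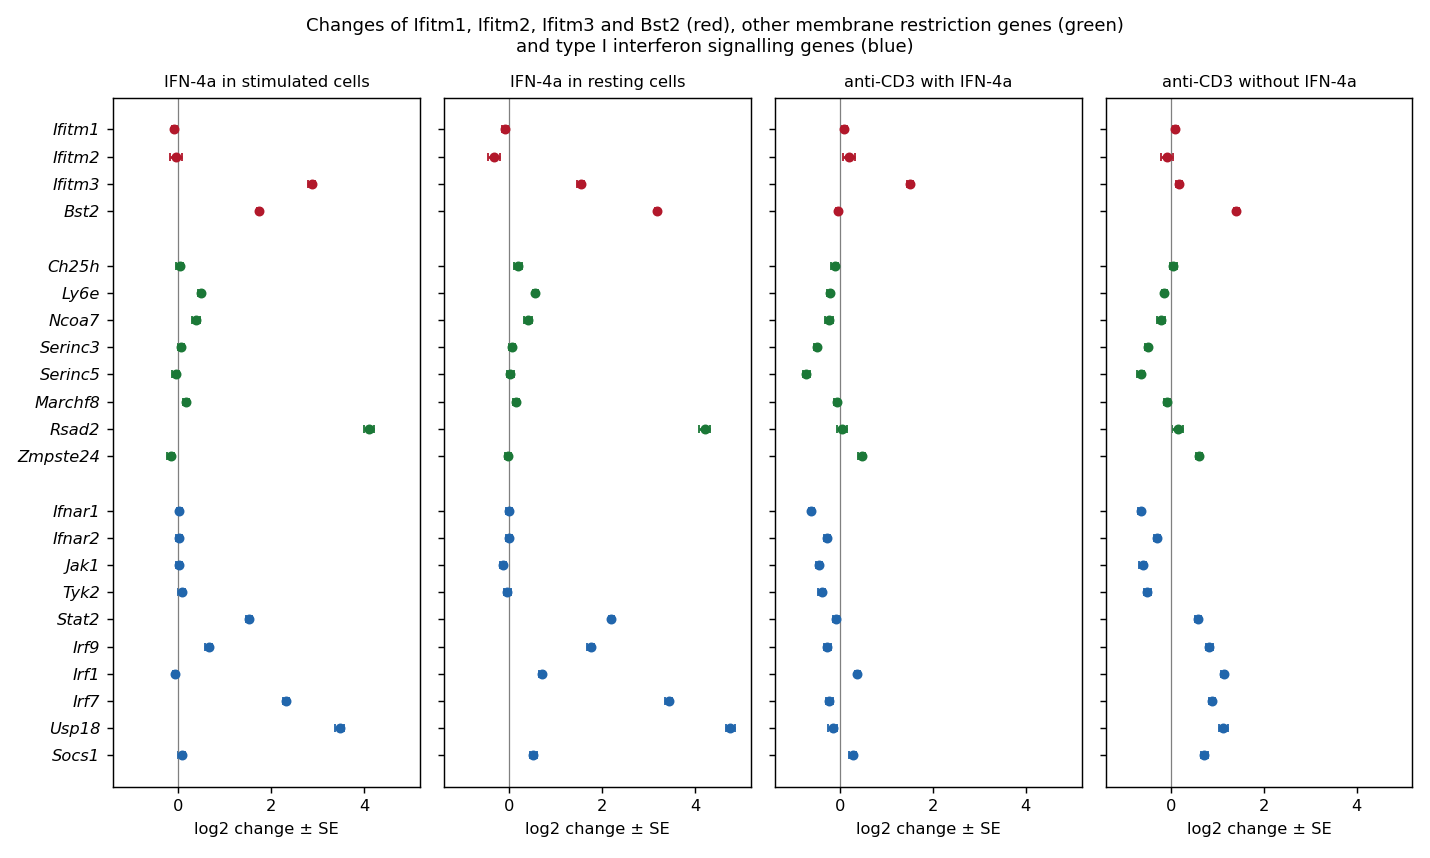
log2 change and SE from the limma fit over 12 arrays in 4 comparisons, for Ifitm1, Ifitm2, Ifitm3 and Bst2 (red), 8 other membrane restriction genes (green) and 10 type I interferon signalling genes (blue). Rsad2 is nearly level between stimulated and resting cells (4.10 and 4.20), Bst2 and the signalling genes Usp18 and Irf7 are smaller in stimulated cells, and Ifitm3 is larger there.

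The genes next to Ifitm3 had smaller IFN-4a changes. In RefSeq order the cluster on chromosome 7 runs Ifitm5, Ifitm2, Ifitm1, Ifitm3, Ifitm6, and no neighbouring genes overlap any of the 4 described. B4galnt4, a sugar transferase just beyond Ifitm6, stood at 0.26 in stimulated cells (limma adjusted p = 0.105) and rose by 0.84 in resting cells (adjusted p = 7.78e-06). Sigirr, a negative regulator of interleukin-1 receptor signalling a little farther on, stood at -0.10 in stimulated cells (adjusted p = 0.595) and fell by 0.38 in resting cells (adjusted p = 0.00331).

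Beside Bst2 on chromosome 8, the next genes on its far side rose modestly. Mvb12a, a subunit of the ESCRT-I complex that sorts membrane cargo, rose by 0.41 in stimulated cells (limma adjusted p = 0.017) and by 0.50 in resting cells (adjusted p = 0.00192). Its call in stimulated cells was lost without anti-CD3 replicate 1 or 3, without anti-CD3 with IFN-4a replicate 2, or with only the 2 groups compared, at an adjusted p of 0.0651 to 0.0822. Tmem221, a transmembrane protein, rose by 0.51 (adjusted p = 0.00684) and 0.45 (adjusted p = 0.00625). Both changes were small beside the 1.73 and 3.18 of Bst2 in the same comparisons.

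**Figure D4:**
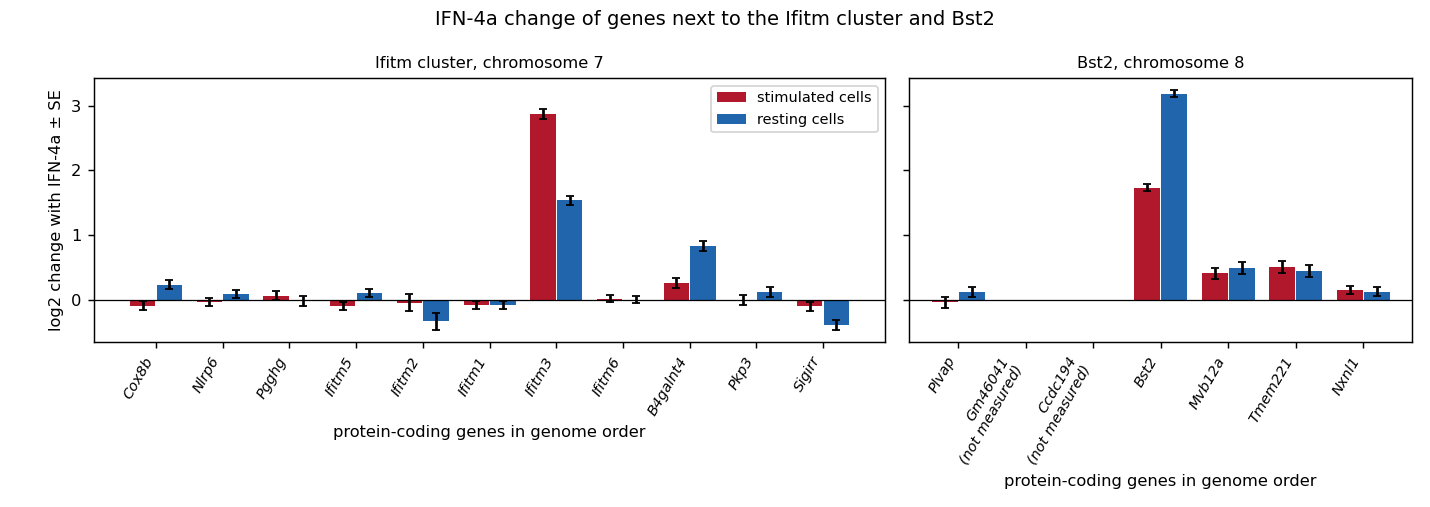
log2 change with IFN-4a (bars, with SE) in stimulated cells (red) and resting cells (blue) for genes in RefSeq order around the Ifitm cluster and around Bst2. Ifitm3 stands alone in its cluster at 2.87 and 1.54, while Mvb12a and Tmem221 next to Bst2 show 0.41 to 0.51.

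The genes whose values over the 12 arrays were most like those of each member were named by Pearson's r, as a description over arrays that share the 4 groups. For Bst2 they were the interferon-stimulated genes Oasl2 (r = 0.999), Parp14 (0.999) and Rtp4 (0.996), all with a smaller IFN-4a change in stimulated cells. For Ifitm3 they were Mpeg1 (r = 0.967), the gene of the pore-forming protein perforin-2, Pik3ap1 (0.962), a signalling adaptor, and Oas1g (0.961), of the oligoadenylate synthetase family. Mpeg1 changed by 1.42 with IFN-4a in stimulated cells and 0.62 in resting cells, Oas1g by 1.13 and 0.43, and Pik3ap1 by 1.48 and 1.38. For Ifitm1 they were Dut (0.889), Cuta (0.876) and Pdcd6 (0.874), and for Ifitm2 Taar7d (0.915), Defa-ps13 (0.895) and Slc66a2 (0.848), none of them changing by more than 0.41 in any comparison. Ifitm3 and Bst2 had r = 0.847 with each other.

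Markers of other cells gave these values beside the changes above. With IFN-4a, 0 of 36 markers of other cell types passed in stimulated cells (2 at an unadjusted p below 0.05), where 1.99% of all genes rose and 1.43% fell. In resting cells, 4.19% of all genes rose and 8.22% fell. There 0 markers rose and 1 fell: Ccr9, of the plasmacytoid dendritic cell list, by 0.26 (limma adjusted p = 0.0178), a call lost under 2 alternatives. The mean centred level of that list lay between -0.01 and 0.09 in anti-CD3 cells with IFN-4a against -0.04 and 0.02 in anti-CD3 cells, and between -0.02 and 0.14 in PBS cells with IFN-4a against -0.06 and 0.01 in PBS cells. For the B cell list the ranges were -0.03 to -0.02 against -0.09 to 0.01 in stimulated cells, and 0.01 to 0.09 against 0.00 to 0.07 in resting cells. The CD4 T cell list holds the activation gene Cd40lg. Its mean lay at 0.06 to 0.11 in anti-CD3 cells with IFN-4a against -0.03 to 0.10 in anti-CD3 cells. It lay at -0.12 to 0.00 in PBS cells with IFN-4a against -0.19 to -0.11 in PBS cells. This mean was higher with anti-CD3 than with PBS, without overlap, in the presence of IFN-4a and without it. Of the 4 genes only Cd40lg was called, however. The median changes of the list with anti-CD3 were -0.01 with IFN-4a and -0.05 without it. The monocyte and macrophage list lay at -0.02 to 0.07 against -0.20 to 0.03 in stimulated cells and 0.01 to 0.06 against -0.06 to 0.14 in resting cells, and the granulocyte list at -0.06 to -0.01 against -0.13 to 0.00 and -0.02 to 0.10 against 0.00 to 0.03. The NK cell list lay at -0.08 to 0.11 against -0.06 to 0.05 in stimulated cells and 0.06 to 0.12 against -0.09 to 0.08 in resting cells, and the erythroid and platelet list at -0.05 to 0.00 against -0.24 to -0.08 (no overlap) and -0.05 to 0.13 against -0.11 to 0.05. With anti-CD3, 3 of the 36 rose and 3 fell in the presence of IFN-4a, and 2 rose and 5 fell without it, beside 12.5% and 14.6% of all genes in the first comparison and 13.6% and 17.9% in the second. Those that rose with IFN-4a present were Cd40lg (0.74, limma adjusted p = 0.000143), Pacsin1 (0.33, adjusted p = 0.000549) and Cd68 (0.25, adjusted p = 0.0456). Cd79b, Klre1 and Cd79a fell there. The call of Cd68 was lost under 12 of 19 alternatives and that of Cd79a under 8. Without IFN-4a Cd40lg and Pacsin1 rose, and Cd79b, Ccr9, Klre1, Elane and Itga2b fell. Of these calls, Itga2b was lost under 9 alternatives, Elane under 4 and Klre1 under 1. The T cell markers Cd3d, Cd3g and Cd8b1 fell with anti-CD3 both in the presence of IFN-4a (list median -0.32) and without it (list median -0.26). The part of these shifts in the values of Ifitm3 and Bst2 was not tested.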

How the data were processed

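RNA of CD8+ T cells was measured on 12 single-channel Affymetrix arrays labelled with a WT Plus kit, per the labels. The deposited values are logarithms, read here as log2, and the authors had centred each row on its median (largest absolute row median 5e-07). No source used here names the log base; with a natural log every fold would be larger. Normalization, probe summarization and software were not given in the sources used here. Likewise, the genome build of the array is not named, so coordinates are given for the RefSeq promoter windows only. Precision is limited by the number of arrays.

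Of 33793 rows, 23521 had 1 symbol, 1814 several and 8458 none. A gene with more than 1 row was taken from the row with the highest mean of the centred values. This does not pick the brightest row, and the choice can depend on how a row differs between groups. Each of the 4 genes had 1 row. In RefSeq 22139 of 22180 symbols were found. Groups came from the titles. limma 3.58.1 in R 4.3.3 fitted a mean per group over 12 arrays (8 residual and 5.09 prior degrees of freedom), with two-sided moderated tests and Benjamini-Hochberg adjustment within each of 5 comparisons; the fit was tested on simulated data. Genes called numbered 760 for IFN-4a in stimulated cells, 2753 in resting cells, 6017 and 6992 for anti-CD3 with and without IFN-4a, and 202 for the difference between states. The 4 genes and all lists were chosen with earlier results of these data known. Named genes are the 4, up to 4 called genes of each list by size (the 2 largest where none was called), and the 3 genes most like each of the 4 by Pearson's r. The neighbouring genes, the brightness step and some further genes of the lists were added after seeing the data. Alternatives were quantile normalization of the deposited centred values, median centring, a replicate block, only the groups compared, array weights, the mean of a gene's rows, a robust prior, and each array left out in turn.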

Additional observations from a re-analysis of the deposited data

Results flagged for a closer look

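The IFN-4a change differed between stimulated and resting cells for the genes named here. For Ifitm3 the log2 change of stimulated cells less the change of resting cells was 1.33, and for Bst2 it was -1.45. Both were chosen for this difference, so the values stand as a description. Of the interferon signalling genes, limma's test of the difference itself gave -0.67 for Stat2 (adjusted p = 0.00127), -1.10 for Irf9 (adjusted p = 7.55e-05), -0.77 for Irf1 (adjusted p = 9.39e-05), -1.11 for Irf7 (adjusted p = 3.75e-05) and -1.29 for Usp18 (adjusted p = 0.000224). After quantile normalization 3 of these calls were lost, with -0.24 for Stat2 (adjusted p = 0.334), -0.27 for Irf7 (adjusted p = 0.169) and -0.36 for Usp18 (adjusted p = 0.233). The neighbour B4galnt4 had -0.58 (adjusted p = 0.0243), a call lost under 8 of 18 alternatives. Genes picked for values like those of Ifitm3 or Bst2 are a description for that reason: Mpeg1 had 0.80 and Oas1g 0.70, both no longer called under 8 or more of 18 alternatives, and Oasl2 had -2.31, Rtp4 -2.06 and Parp14 -1.25.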

How the results depend on the processing

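Over the 19 alternatives of each comparison (18 for the difference between states), the IFN-4a changes of Ifitm3 stayed between 2.79 and 2.91 in stimulated cells and between 1.47 and 1.58 in resting cells. Quantile normalization moved Bst2 most: to 1.93 in stimulated cells, 2.46 in resting cells and -0.53 for the difference. It turned anti-CD3 without IFN-4a to -0.22 for Ifitm3, -0.11 for Irf7 and -0.054 for Stat2. In that comparison Ifitm2 ranged from -0.1677 to 0.0662 with 1 array left out, the highest value being that without PBS replicate 1. Of 146 results of listed, neighbouring and similar genes, 31 lost a call in at least 1 alternative while keeping their sign. The other 115 did not all keep a call. They include results that were not called at first, and Irf7 and Stat2 with anti-CD3 without IFN-4a, whose sign turned. Counts of called genes with 1 array left out ranged from 484 to 748 for IFN-4a in stimulated cells, 1721 to 2910 in resting cells (lowest without PBS with IFN-4a replicate 2), 5507 to 6097 for anti-CD3 with IFN-4a, 6123 to 7066 without it, and 137 to 198 for the difference. The stimulated count fell to 484 without anti-CD3 with IFN-4a replicate 3, to 484 without anti-CD3 replicate 2 and to 503 without anti-CD3 replicate 3, against 760. Array weights gave 1351 calls for IFN-4a in stimulated cells (625 higher, 726 lower, against 442 and 318), and quantile normalization gave 117 for the difference, against 202. The cause of these moves was not tested. Same-numbered arrays were not treated as paired in the main tests, because the labels name no pairing. Of 18 same-numbered pairs, 6 had deviations correlated above 0.1 (r from -0.0754 to 0.2646), and 10 of 12 arrays correlated best with their own number. These values do not justify leaving the number out, and whether such arrays share a source was not tested. With the replicate number as a block, 482 genes were higher and 384 lower with IFN-4a in stimulated cells, 966 and 1882 in resting cells, 2803 and 3323 for anti-CD3 with IFN-4a, 3025 and 4000 without it, and 65 and 142 for the difference.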
